A study of Mus musculus with 2 samples.

Results

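The mitotic spindle and kinetochore genes measured here were 40 of the 31053 genes counted in single cells of the embryonic mouse eye. They were chosen by name, for their roles in mitosis, with earlier results of these data known. Every gene was found in the files of both libraries. They fell into 9 groups by role: cyclins with their kinase (Cdk1, Ccnb1, Ccnb2, grouped with Cdca3, which is neither), the kinetochore (Spc24, Spc25, Nuf2, Ndc80, Cenpa, Cenpe, Cenpf), the spindle checkpoint and the guard of cohesion (Bub1, Bub1b, Ttk, Sgo2a), the chromosomal passenger complex (Aurkb, Birc5, Cdca8), other mitotic kinases (Aurka, Plk1, Nek2, Pbk), the anaphase-promoting complex (Ube2c, Cdc20), kinesins (Kif11, Kif20a, Kif20b, Kif23, Kif2c), proteins of the spindle and midzone (Hmmr, Nusap1, Tpx2, Ckap2, Ckap2l, Anln, Prc1, Kpna2) and proteins of chromosome structure (Top2a, Cdca2, Mki67). The spindle and midzone group also took in Kpna2, a nuclear import factor, and Anln, a scaffold of the cleavage furrow. Below the 40 genes are called the mitotic genes.

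A dividing cell condenses its chromosomes, builds a bipolar spindle, attaches each sister kinetochore to microtubules and holds anaphase back until the attachments are complete. Cdk1 with cyclin B drives entry into this phase, Aurora and Polo-like kinases shape the spindle, the checkpoint kinases delay anaphase, and Cdc20 with the ubiquitin-conjugating enzyme Ube2c then lets the anaphase-promoting complex destroy cyclin B and the tie between sister chromatids. Most of these transcripts are made in the G2 and M phases and are low or absent in cells that have left the cycle, so they mark proliferating cells. In the embryonic eye, retinal progenitors and mesenchyme around the eye divide, newborn neurons do not, and the retinal pigment epithelium (RPE) slows its divisions as it matures.

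Eye cups at e13.5, without cornea, lens and optic nerve, were dissociated with papain and measured on the 10x Genomics platform, in which each cell has a barcode and each captured transcript a unique molecular identifier (UMI). The control library pooled 3 samples of genotype Myrf fl/fl, and the mutant library pooled 3 samples of genotype Rx > cre Myrf fl/fl. Both carried the floxed alleles of Myrf, a membrane-bound transcription factor, and the mutant also carried a Cre transgene driven by Rx, which is expressed in the early eye field that gives rise to retina and RPE, so Cre and loss of Myrf could not be told apart. With 1 library per genotype there was no replicate check, no test was made, and each interval below is a 95% interval for counting error only.

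The promoters of the mitotic genes are shown first, because these genes were counted together in the same cells. RefSeq entries of assembly GRCm38.p6, the assembly of the mm10 build the authors used, gave 36 promoters for 34 of the 40 genes, each running from 250 bases before to 50 bases after the start. Spc24, Aurkb, Kif20a, Tpx2, Pbk and Cdca2 had no entry. Promoters were searched on both strands for the cell cycle genes homology region (CHR, letters TTTGAA or TTCGAA) and for the NF-Y box (letters CCAAT). The stretches are printed 5′ to 3′ on the strand of the gene, from 200 bases before to 30 bases after the start, with matches in capitals (TTCAAA and ATTGG are the same letters on the other strand). They were chosen as genes with large or well counted values in the RPE-like cells below, plus Birc5, whose promoter held neither set of letters. Their positions are Cdk1 at chr10:69352883-69353112, minus strand, Ccnb2 at chr9:70421525-70421754, minus strand, Top2a at chr11:99024160-99024389, minus strand, Ube2c at chr2:164769729-164769958, plus strand, Hmmr at chr11:40733408-40733637, minus strand and Birc5 at chr11:117849037-117849266, plus strand.
Cdk1: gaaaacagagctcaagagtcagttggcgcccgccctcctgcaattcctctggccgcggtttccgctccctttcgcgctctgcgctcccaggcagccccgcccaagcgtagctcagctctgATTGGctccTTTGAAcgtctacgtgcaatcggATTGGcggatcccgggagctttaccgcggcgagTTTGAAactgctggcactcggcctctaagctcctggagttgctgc
Ccnb2: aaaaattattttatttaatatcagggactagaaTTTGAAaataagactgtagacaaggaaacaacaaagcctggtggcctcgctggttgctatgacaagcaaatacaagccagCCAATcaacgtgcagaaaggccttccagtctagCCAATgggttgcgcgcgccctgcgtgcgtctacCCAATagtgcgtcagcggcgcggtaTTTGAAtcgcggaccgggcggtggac
Top2a: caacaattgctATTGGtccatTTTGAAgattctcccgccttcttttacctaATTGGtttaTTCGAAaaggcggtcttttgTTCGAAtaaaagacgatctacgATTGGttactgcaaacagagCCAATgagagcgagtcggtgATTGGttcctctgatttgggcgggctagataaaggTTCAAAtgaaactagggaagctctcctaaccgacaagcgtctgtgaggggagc
Ube2c: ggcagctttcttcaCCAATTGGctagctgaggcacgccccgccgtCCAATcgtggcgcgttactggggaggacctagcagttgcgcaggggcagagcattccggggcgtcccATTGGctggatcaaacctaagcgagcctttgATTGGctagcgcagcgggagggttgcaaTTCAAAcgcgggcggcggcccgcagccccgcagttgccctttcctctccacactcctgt
Hmmr: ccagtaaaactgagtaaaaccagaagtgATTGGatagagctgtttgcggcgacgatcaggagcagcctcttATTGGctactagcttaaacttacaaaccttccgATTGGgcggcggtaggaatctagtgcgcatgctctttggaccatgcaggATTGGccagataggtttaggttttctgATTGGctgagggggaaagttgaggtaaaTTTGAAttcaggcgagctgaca
Birc5: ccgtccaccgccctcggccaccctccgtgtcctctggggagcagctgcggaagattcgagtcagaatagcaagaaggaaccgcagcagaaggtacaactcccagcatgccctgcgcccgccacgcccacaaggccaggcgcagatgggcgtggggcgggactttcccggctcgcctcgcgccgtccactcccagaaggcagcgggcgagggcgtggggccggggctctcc

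CHR letters were present in 28 of the 36 promoters (77.8%), against 19.2% of 32851 promoters of 27025 genes. CCAAT was present in 29 (80.6%, against 37.4%), both in 24 (66.7%, against 7.52%), and 2 or more CCAAT matches in 19 (52.8%, against 11.7%). Top2a, which untangles sister DNA before anaphase, held 4 CHR and 6 CCAAT matches in its full window, and Hmmr, a microtubule-binding protein of the spindle, held 1 and 5. The promoters of Birc5 (survivin), Nuf2, a subunit of the outer kinetochore, and Nusap1, a spindle-assembly protein, were the 3 with neither. The CHR letters of the mitotic genes lay near the start: 25 of 36 promoters (69.4%) had a match within 50 bases of it, against 5.51% of all promoters. Their median position was +1.5 bases, against -122 over all promoters, and CCAAT matches lay upstream, at a median of -61.5 against -90.0. A match is a description of letters and not a site shown to be bound, and absence says only that these letters were not in the window.

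**Figure D1:**
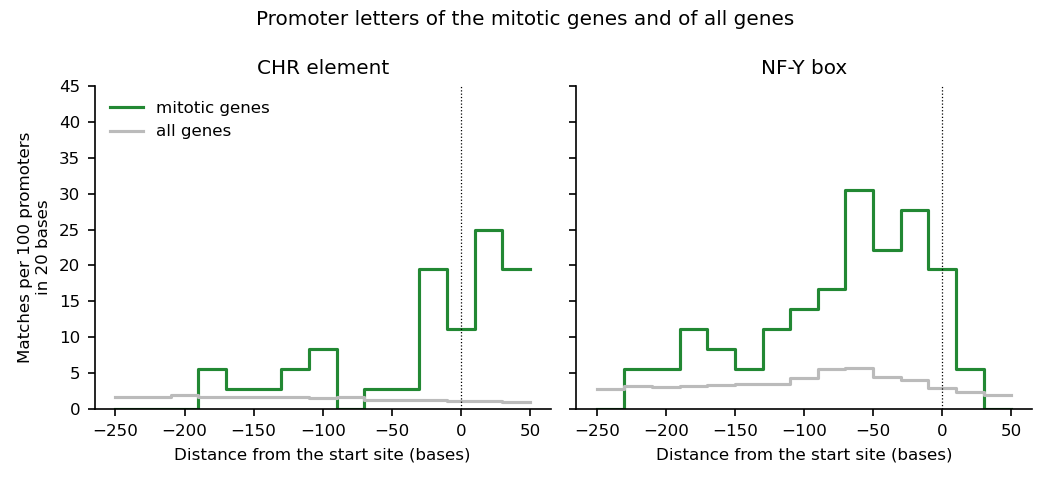
Matches per 100 promoters in bins of 20 bases (vertical axis) against distance from the start site in bases (horizontal axis), for the 36 promoters of the mitotic genes (green) and all 32851 promoters (grey), with CHR on the left and CCAAT on the right. CHR matches of the mitotic genes gather around the start (69.4% of promoters have one within 50 bases) and CCAAT matches upstream of it.

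The files held 6039 control and 6754 mutant barcodes with medians of 10083 and 10638 UMIs, of which 5468 and 6300 cells were kept after filters on genes, mitochondrial UMIs and doublets. Cells of both libraries were clustered without the mitotic genes and other listed cell cycle genes, but unlisted genes that follow the cycle, such as Pclaf and Tk1, remained among the clustering features. The 27 clusters were named X-like from marker lists, and 3 clusters of 719 control and 578 mutant cells, mostly of low depth (medians of 771 and 806 UMIs), stayed unnamed. The libraries shared 72 barcodes. Of the 67 that were kept in both, 57 had totals within 1.2-fold of each other and 60 (control) and 59 (mutant) were in unnamed clusters. In RPE-like cells Myrf, the deleted gene, had 155 control and 30 mutant UMIs, or 74.8 and 19.998 CPM (UMIs per 1000000 UMIs of a class). In these cells 11 of 12 RPE markers were detected in both libraries and Rpe65, an enzyme of the visual cycle, had no UMI in either.

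Levels of the mitotic genes differed widely between cell classes. The level of a class is the sum of their UMIs over its cells, as CPM of all its UMIs. They were highest in neurogenic precursor-like cells, marked by Atoh7 and Neurog2, with 7474 control CPM (7369 to 7579) and 6926 mutant CPM (6832 to 7020). Retinal progenitor-like cells followed with 4988 and 4864 CPM. Melanocyte-like cells had 4236 and 3123 CPM, Schwann or neural crest-like cells 4233 and 2838, macrophage-like cells 3399 and 3273, endothelium-like cells 3328 and 2669, muscle-like cells 3113 and 3612, surface ectoderm-like cells 2782 and 2305, and periocular mesenchyme-like cells 2368 and 2269. RPE-like cells had 1222 CPM in the control and 2193 in the mutant. The classes of young neurons and blood were at the bottom, with 828 and 423 CPM in ganglion cell-like, 406 and 653 in amacrine or horizontal-like, 309 and 253 in photoreceptor precursor-like and 275 and 424 in red blood cell-like cells. UMIs of 1 cell are not independent draws of a class, so the spread between cells is wider than these intervals.

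A single UMI of any mitotic gene did not separate these classes. At least 1 UMI of the 40 genes was present in between 80.6% and 97.2% of the cells of every class, and even red blood cell-like cells, which should hold few such transcripts, had 84.1% and 81.2% at medians of 22477 and 22741 UMIs per cell. Cells were therefore thinned to 3000 UMIs, cells below that depth were left out (1325 control and 1303 mutant cells), and a cell in which at least 5 of the 40 genes were still detected was called mitotic-rich. By this measure 1.69% of red blood cell-like cells were mitotic-rich in the control and 4.11% in the mutant. This is a low reference and not a neutral background, since Ube2c alone had 102 and 106 of the 275 and 424 CPM of this class. Without thinning, 5 or more of the 40 genes were detected in 11.5% and 12.3% of red blood cell-like cells.

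Mitotic-rich cells made up 67.5% of control (60.5 to 73.9) and 63.8% of mutant (57.3 to 70.0) neurogenic precursor-like cells, and 57.7% and 53.5% of retinal progenitor-like cells. The next shares in the control were 45.9% in surface ectoderm-like (37 cells), 44.4% in melanocyte-like (36 cells), 40.2% in endothelium-like, 39.7% in macrophage-like and 39.1% in muscle-like cells (23 cells), and the counting intervals of these 5 classes overlap one another. Schwann or neural crest-like cells had 28.6% and 21.6%, and periocular mesenchyme-like cells 20.8% and 18.9%. RPE-like cells had 12.98% of control (7.74 to 19.96) and 19.8% of mutant cells (11.7 to 30.1). Ganglion cell-like cells had 8.66% and 4.22%, and photoreceptor precursor-like cells had 1 mitotic-rich cell of 28 in the control and 0 of 29 in the mutant, which allows a share of up to 10.3% when 3 counts are taken as the limit, and up to 11.9% by the exact Clopper-Pearson interval.

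**Figure D2:**
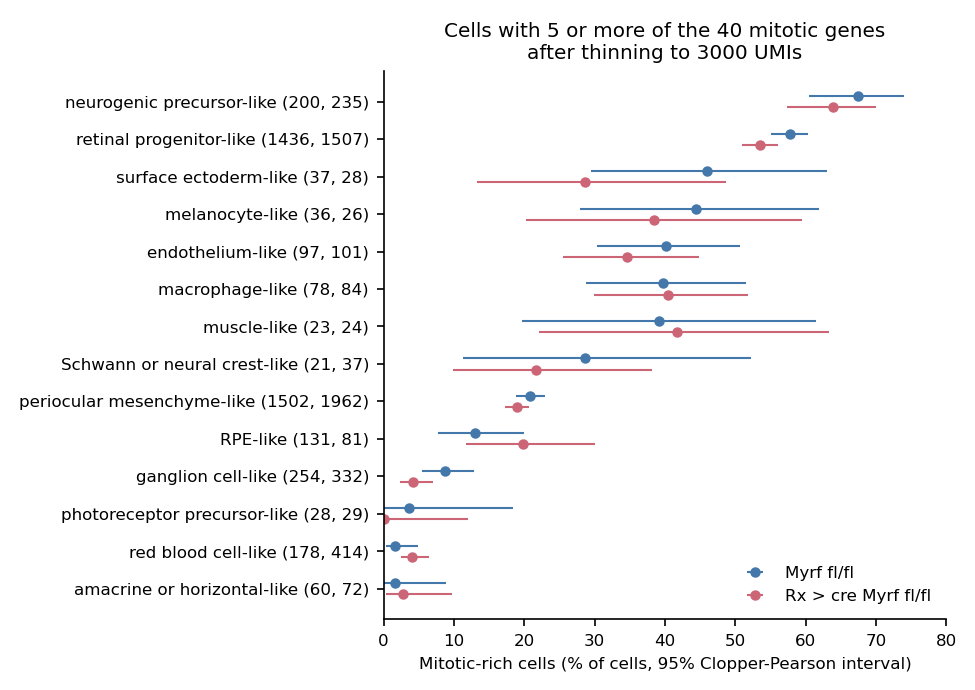
Share of mitotic-rich cells (horizontal axis, % of cells thinned to 3000 UMIs, with 95% Clopper-Pearson intervals) for each cell class (vertical axis, numbers of control and mutant cells in parentheses) in the control and mutant library. Neurogenic precursor-like (67.5% and 63.8%) and retinal progenitor-like cells (57.7% and 53.5%) have the highest shares, and photoreceptor precursor-like, red blood cell-like and amacrine or horizontal-like cells the lowest.

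Within a class the mitotic UMIs sat in a minority of cells. The 10% of retinal progenitor-like cells with the most mitotic UMIs held 52.0% (control) and 54.1% (mutant) of the class's mitotic UMIs, and the same portion held 70.2% and 72.1% in periocular mesenchyme-like cells and 79.0% and 82.0% in RPE-like cells. A single cluster of retinal progenitor-like cells (cluster 11, 217 control and 223 mutant cells) had 11342 and 11772 CPM, and all of its 216 and 221 cells with 3000 UMIs were mitotic-rich. The mitotic genes took no part in the clustering, but genes that follow them could. The other 3 clusters of that class had between 2149 and 4233 CPM.

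The mitotic genes were detected together. Each gene was compared between cells rich in the other 39 genes and the remaining cells, at 3000 UMIs. Ube2c was detected in 66.7% of control cells rich in the others and in 7.6% of the rest (65.1% and 7.4% in the mutant). Birc5, the survivin subunit of the chromosomal passenger complex, was detected in 79.1% and 12.2% (82.5% and 10.0% in the mutant), the largest share among the 40. Between 78.0% (Spc24, a subunit of the outer kinetochore) and 95.6% (Hmmr) of a gene's UMIs lay in the rich cells of the control. Across cells, Pearson's r between a pair of mitotic genes had a median over 780 pairs of 0.15 (control) and 0.17 (mutant) in retinal progenitor-like and 0.25 and 0.26 in periocular mesenchyme-like cells. Ube2c with Cenpf, a kinetochore protein of late G2, had an r of 0.59 and 0.63 in retinal progenitor-like cells, and no other pair had a higher value in its lower library. These pairs share cells and libraries, and the values are a description.

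Outside the 40 genes and the fixed lists of cell cycle genes, genes whose level followed the summed mitotic genes closely over 28 points (14 classes in each of 2 libraries) were Pclaf, a partner of the replication clamp, with a Pearson's r of 0.97 on log2(CPM + 1), then Hist1h2ap, Tk1, Rad51ap1, Hist1h1b, Hist1h3c and Gmnn, with r down to 0.95. The points share libraries and classes of unequal depth. Hist1h2ap, Hist1h1b and Hist1h3c encode histones that are made during DNA replication.

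Neurogenic precursor-like cells had more mitotic transcripts per UMI than retinal progenitor-like cells in both libraries. Of the 40 genes, 39 were higher in the control (median log2 ratio 0.65) and 40 in the mutant (median 0.52), and the neurogenic class was the highest of 14 classes for 36 and 37 of the 40. Pbk, a mitotic kinase, had 101 CPM in control progenitor-like and 228 in control neurogenic cells (log2 1.17, 1.04 to 1.31), and 108 and 223 CPM in the mutant (1.05, 0.92 to 1.17). Nek2, a centrosome kinase, had 17.4 and 33.1 CPM in the control (0.94, 0.57 to 1.27) and 14.5 and 34.0 in the mutant (1.24, 0.89 to 1.56). Hmmr had 74.9 and 146 CPM in the control (0.96) and 68.6 and 134 in the mutant (0.97).

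Birc5 and Spc24 stood outside this pattern. Birc5 had 423 CPM in control progenitor-like and 421 in control neurogenic cells (log2 -0.01, -0.10 to 0.08), with 408 and 417 CPM in the mutant (0.03, -0.06 to 0.12). Spc24 likewise had 174 CPM in both control classes, with 172 and 176 CPM in the mutant. For both genes the intervals include 0 in each library, while Cdk1, the kinase of mitotic entry, had 247 and 423 CPM in the control (0.78, 0.68 to 0.87) and 251 and 406 in the mutant (0.69, 0.60 to 0.78). The ratio of the classes depended on how cells were chosen: under an upper limit of 2000 UMIs per cell the median was 1.18 in the control and -0.16 in the mutant.

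**Figure D3:**
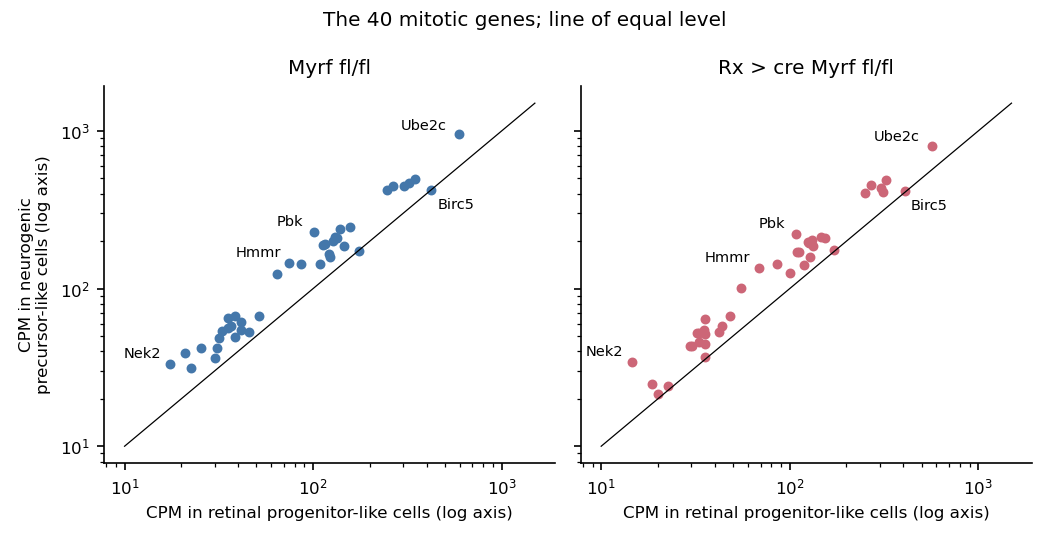
Level of each of the 40 mitotic genes in neurogenic precursor-like cells (vertical axis, CPM, log axis) against retinal progenitor-like cells (horizontal axis, CPM, log axis) in the control (left) and mutant (right) library, with the line of equal level. Pbk, Hmmr and Nek2 lie above the line and Birc5 lies on it.

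In RPE-like cells the mitotic genes were higher in the mutant library. Their summed level was 1222 CPM (1175 to 1271) in 249 control cells and 2193 CPM (2119 to 2269) in 156 mutant cells, a log2 ratio of 0.84 (0.77 to 0.92). All 40 genes were at a higher mutant level, and their median log2 ratio was 0.80 against -0.03 over 11204 genes. In 31 of the 40 the level was at least 1.5-fold higher, against 8.86% of all genes with 10 UMIs. In 25 of the 40 the interval lay above 0, against 715 of the 11204 genes. No mitotic gene was 1.5-fold lower, against 12.3% of all genes. Other genes of the cell cycle moved with them: of 86 measured genes in a wider list of G2 and M phase genes 76 were higher (median 0.67), and so were 34 of 34 S-phase genes (median 0.87). Log2 ratios are of mutant to control CPM, after adding 1 UMI to either sum.

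Sums by role are given as control and mutant CPM, each with the median log2 ratio of its genes. Chromosome structure had 74.8 and 169 CPM (1.29) and the other mitotic kinases 55.0 and 115 (1.12). The spindle and midzone group had 159 and 303 CPM (0.92), the chromosomal passenger complex 192 and 350 (0.88), the kinetochore 295 and 521 (0.81), and the cyclins with their kinase and Cdca3 169 and 298 (0.75). The smallest medians belonged to the kinesins, with 64.2 and 107 CPM (0.69), the checkpoint group, with 39.1 and 60.0 (0.63), and the anaphase-promoting complex, with 173 and 270 (0.56).

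Cdk1 had 106 UMIs in control and 187 in mutant RPE-like cells, or 51.2 and 125 CPM (log2 1.28, 0.93 to 1.64). Its partner cyclins were closer: Ccnb1 had 62 and 76 UMIs (0.76, 0.26 to 1.27) and Ccnb2 113 and 99 UMIs, or 54.5 and 66.0 CPM (0.28, -0.13 to 0.68). At the kinetochore, Spc25 of the Ndc80 complex had 49 and 104 UMIs, or 23.7 and 69.3 CPM (1.54, 1.05 to 2.07). Its partner Spc24 had 90 and 125 UMIs (0.94, 0.54 to 1.35), while Nuf2 and Ndc80 had 19 and 19 and 21 and 27 UMIs, with intervals that include 0. Cenpa, the histone variant that marks the centromere, had 208 and 233 UMIs, or 100.4 and 155 CPM (0.63, 0.35 to 0.91). The 4 subunits of the Ndc80 complex thus had point values between 0.47 and 1.54 with intervals that overlap.

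Among checkpoint genes, Bub1, a kinase that recruits checkpoint proteins to the kinetochore, had 22 and 32 UMIs (0.99, 0.18 to 1.86), and Sgo2a, which protects cohesin at centromeres, 24 and 20 UMIs, or 11.6 and 13.3 CPM (0.21, -0.73 to 1.12). Birc5 had 237 and 293 UMIs, or 114 and 195 CPM (0.77, 0.52 to 1.03). Of the kinases, Aurka, which acts at spindle poles, had 40 and 65 UMIs (1.15, 0.58 to 1.77), Pbk 35 and 63 UMIs (1.30, 0.70 to 1.95) and Plk1, the Polo-like kinase, 29 UMIs in each library (0.47, -0.33 to 1.26). Ube2c, the best counted of the 40, had 262 and 313 UMIs, or 126 and 209 CPM (0.72, 0.48 to 0.96), and Cdc20, the activator it works with, 97 and 92 UMIs, or 46.8 and 61.3 CPM (0.39, -0.04 to 0.82). The interval of Cdc20 includes 0, like those of Sgo2a, Plk1 and Ccnb2.

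Among motors and spindle proteins, Kif20b, a kinesin of cytokinesis, had 35 and 48 UMIs (0.91, 0.26 to 1.59), and Kif20a, a kinesin of the midzone, had the smallest ratio of the 40, with 29 and 22 UMIs, or 13.997 and 14.7 CPM (0.08, -0.80 to 0.92). Hmmr had 35 and 74 UMIs, or 16.9 and 49.3 CPM (1.52, 0.95 to 2.17), and Nusap1 67 and 107 UMIs (1.13, 0.69 to 1.604). Top2a had 85 and 151 UMIs, or 41.0 and 101 CPM (1.29, 0.90 to 1.70). Cdca2, a chromatin regulator of mitotic exit, had the largest ratio, on 10 and 24 UMIs (1.65, 0.61 to 2.96). The 15 genes whose interval includes 0 included Ccnb2 and Cdc20, the best counted of them.

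**Figure D4:**
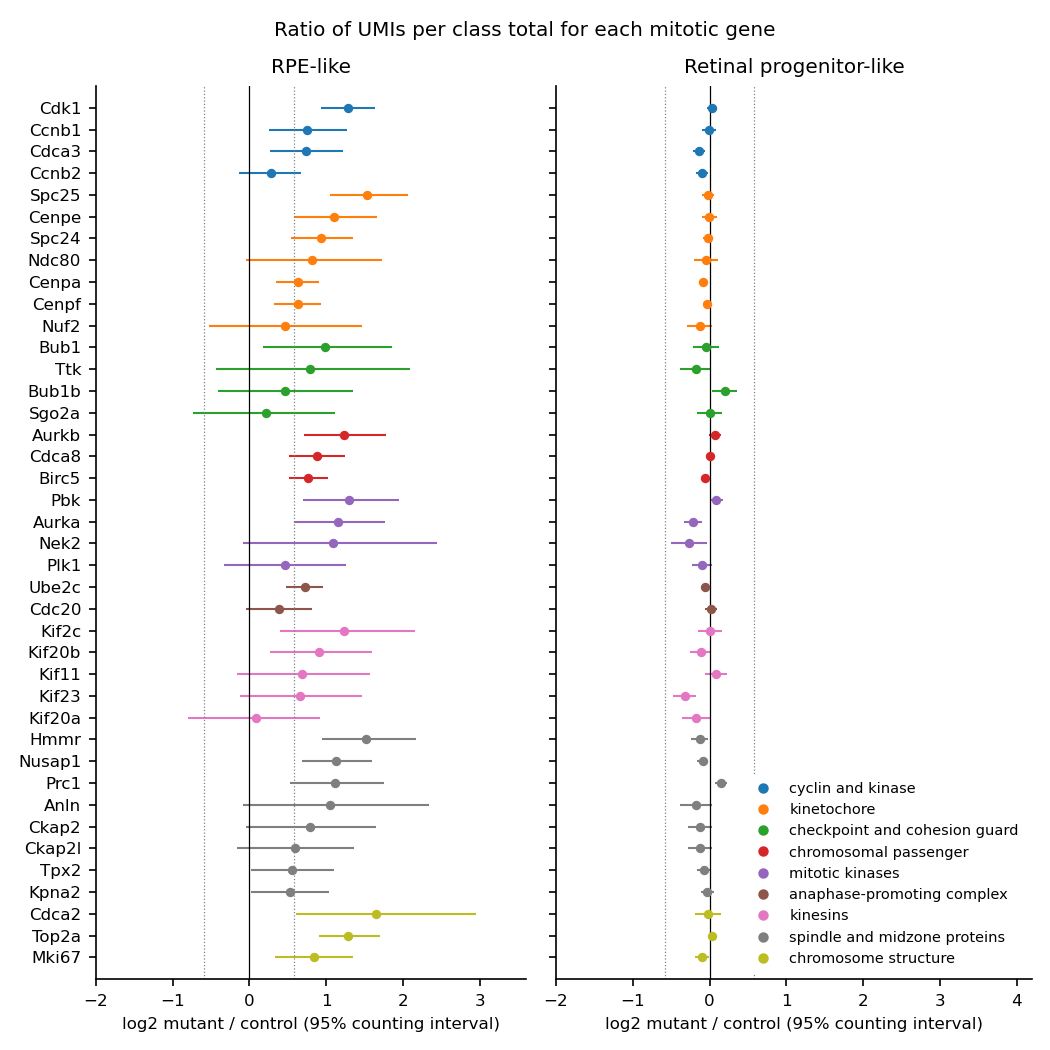
Log2 ratio of mutant over control level (horizontal axis, with 95% counting intervals) of each mitotic gene (vertical axis, coloured by role) in RPE-like cells (left) and retinal progenitor-like cells (right), with dotted lines at 1.5-fold. In RPE-like cells all 40 points lie above 0, between 0.08 and 1.65. In retinal progenitor-like cells they lie between -0.33 and 0.20.

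The RPE-like values came from few cells and moved with their depth and mitochondrial share. The share of mitotic-rich cells was 17 of 131 in the control and 16 of 81 in the mutant, a difference of 6.78 percentage points with an interval that includes 0 (-3.15 to 17.8). The mitotic-rich cells carried medians of 8 (control) and 10 (mutant) of the 12 RPE markers and of 8980 and 25602 UMIs, so the deep cells of the mutant weighed more in the sums. Of the 12 retinal progenitor markers, a mitotic-rich cell carried between 0 and 11 in the control and between 2 and 7 in the mutant. The control cell with 11 of them carried 6 RPE markers. When each cell of at least 3000 UMIs counted equally, the level was 1127 control and 1626 mutant CPM, the median log2 ratio over 26 measured genes was 0.44, and 11 of them were 1.5-fold higher. In cells of 3000 to 20000 UMIs the level was 686 and 1070 CPM, and in the 16 and 27 cells over 20000 UMIs it was 2887 and 3140 CPM. The 118 control and 75 mutant cells under 3000 UMIs had 2242 and 3201 CPM, so the level did not simply rise with depth.

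The share of mitochondrial UMIs split the class further. Cells with up to 5% of them (103 control, 87 mutant) had 2380 and 3535 CPM of mitotic genes, with 8 and 13 mitotic-rich cells. Cells above 5% (146 and 69) had 794 and 741 CPM, with 9 and 3. When cells were kept only up to 5% before clustering, the median log2 ratio was 0.30, 32 of the 40 genes were higher, 9 were 1.5-fold higher and Ube2c turned to -0.16 (-0.41 to 0.10).

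The pooled embryos could be told apart by sex in part of the cells. In RPE-like cells with Xist and no Y-linked UMI (female) 33 of 34 measured mitotic genes were higher in the mutant (median 1.40), and in cells with a Y-linked UMI and no Xist (male) 36 of 38 (median 1.25). Both medians lay above the 0.80 of the whole class. Cells with neither or both kinds of UMI were left out of this split, and their part in the whole-class value was not tested.

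Of the 4 other classes whose markers were summed within RPE-like cells, those of red blood cells alone were higher in the mutant. Retinal progenitor markers summed to 1314 CPM in the control and 1069 in the mutant (12 of 12 detected in each), periocular mesenchyme markers to 255 and 253 (13 of 13), and melanocyte markers to 977 and 805, with Pax3 at 0 in both libraries and Sox10 at 0 in the mutant. Red blood cell markers summed to 942 and 1401 CPM. In mitotic-rich cells they summed to 443 (control) and 411 CPM (mutant), and in other cells of at least 3000 UMIs to 323 and 1291. The RPE markers themselves summed to 14205 CPM in the control and 9994 in the mutant. In mitotic-rich cells they summed to 9974 (control) and 9338 CPM (mutant), against 15024 and 10214 in other cells of at least 3000 UMIs. Retinal progenitor markers summed to 1367 and 1107 CPM in mitotic-rich cells, against 1272 and 1035 in those others. The part of these differences in the mitotic values was not tested.

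**Figure D5:**
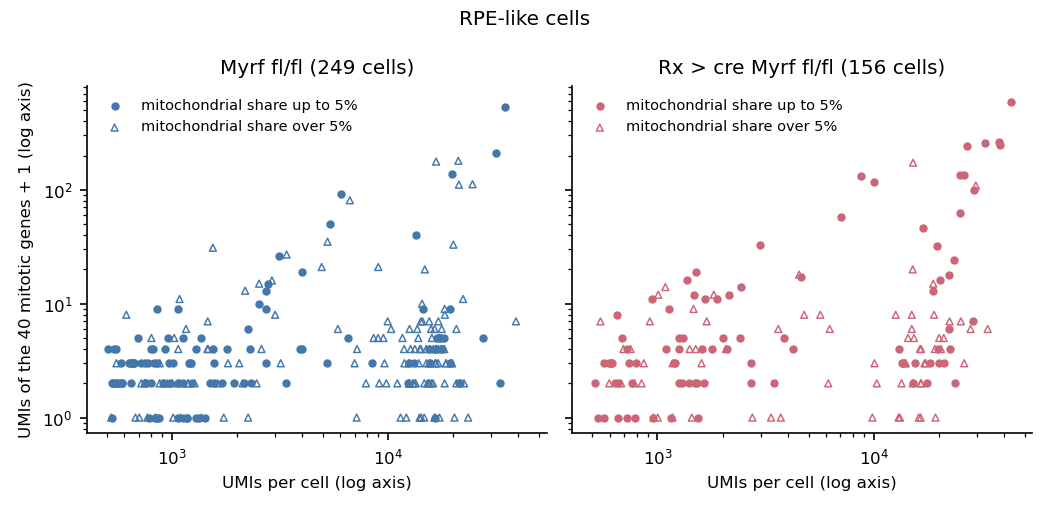
UMIs of the 40 mitotic genes plus 1 (vertical axis, log axis) against all UMIs (horizontal axis, log axis) of each RPE-like cell in the control (249 cells, left) and mutant (156 cells, right) library, with filled circles for cells with up to 5% mitochondrial UMIs and open triangles above 5%. Most cells lie low, and the 27 mutant cells over 20000 UMIs include 10 mitotic-rich cells, against 5 of 16 in the control.

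Retinal progenitor-like cells, the other large class of the eye field lineage, showed ratios near 0. The summed level was 4988 CPM (4956 to 5019) in 1597 control and 4864 CPM (4833 to 4896) in 1706 mutant cells. Of the 40 genes 11 were higher and 29 lower in mutant cells, and their median log2 ratio was -0.05 against -0.02 over 13865 genes. No gene was 1.5-fold higher or lower, against 3.07% and 5.08% of all genes. Kif23, a motor of the midzone, had 41.3 and 32.9 CPM (-0.33, -0.48 to -0.17), Nek2 17.4 and 14.5 (-0.26, -0.50 to -0.03) and Aurka 64.3 and 55.3 (-0.22, -0.34 to -0.10).

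On the other side, Bub1b, the checkpoint protein BubR1, had 31.0 CPM in control and 35.6 in mutant progenitor-like cells (0.20, 0.04 to 0.36), and Prc1, which bundles midzone microtubules, 139 and 154 (0.15, 0.07 to 0.22). Ube2c had 591 and 569 CPM (-0.06, -0.09 to -0.02), Birc5 423 and 408 (-0.05), Cdk1 247 and 251 (0.03) and Top2a 264 and 271 (0.04). The share of mitotic-rich cells was 57.7% in the control and 53.5% in the mutant, a difference of -4.25 percentage points (-7.82 to -0.65). The point values differed in direction between the sexes of the pooled embryos. In female cells the difference was -10.1 points (-16.6 to -3.53) and in male cells 4.19 points (-2.98 to 11.3), an interval that includes 0. The median log2 ratio in male cells was 0.07. Each pool held 3 samples, so sex could not be told apart from differences between embryos.

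Neurogenic precursor-like cells had 34 of 40 mitotic genes lower in the mutant (median -0.11), 2 of them at least 1.5-fold, against 8.4% of all genes. These were Kif20a, with 41.9 CPM in the control and 24.0 in the mutant (-0.80, -1.25 to -0.36), and Anln, a scaffold of the cleavage furrow, with 39.2 and 24.7 (-0.66, -1.12 to -0.22). Ttk, the checkpoint kinase Mps1, had 31.1 and 21.3 CPM (-0.54, -1.04 to -0.05). Cdca2 lay highest, with 36.5 and 43.0 CPM (0.23, -0.16 to 0.63), and Top2a had 450.5 and 454 CPM (0.01). The share of mitotic-rich cells differed by -3.67 points, with an interval that includes 0 (-12.5 to 5.29).

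Ganglion cell-like cells, the first neurons of the retina, had less mitotic RNA in the mutant. Their summed level was 828 CPM (800.3 to 857) in 359 control and 423 CPM (406 to 442) in 488 mutant cells. Of the 40 genes 38 were lower (median log2 ratio -0.92 against -0.03 over 11899 genes) and 29 at least 1.5-fold lower, against 7.27% of all genes. Tpx2, which activates Aurka on the spindle, had 102 control and 40 mutant UMIs, or 25.5 and 8.04 CPM (-1.64, -2.23 to -1.12). Ccnb2 had 126 and 52 UMIs (-1.58, -2.09 to -1.11), Cenpa 360 and 162 (-1.46, -1.74 to -1.19), Birc5 262 and 126 (-1.36, -1.69 to -1.06) and Ube2c 408 and 226 (-1.16, -1.41 to -0.93). Top2a had 123 and 129 UMIs (-0.25, -0.61 to 0.12) and Kpna2, a nuclear import factor, 151 and 158 (-0.25, -0.58 to 0.08), and their intervals include 0.

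The 2 clusters that made up this class differed in level. Cluster 9, with 223 control and 293 mutant cells at medians of 16243 and 14896 UMIs, had 594 and 350 CPM. Of 39 measured mitotic genes 37 were lower (median -0.62) and 20 at least 1.5-fold lower, against 872 of all 11655 measured genes. Cluster 14, with 136 and 195 cells at medians of 1458 and 1730 UMIs, had 3329 and 1027 CPM. Here 35 of 36 mitotic genes were lower (median -1.63) and 32 at least 1.5-fold lower, against 1119 of all 7094 measured genes. The cells of cluster 14 with 3000 UMIs or more were mitotic-rich in 5 of 33 and 6 of 43 cases, 15.2% and 13.95%. In the whole class 22 of 254 control and 14 of 332 mutant cells were mitotic-rich, a difference of -4.44 points (-8.88 to -0.48). Under an upper limit of 2000 UMIs per cell the class had a median of -0.03.

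Periocular mesenchyme-like cells, in which the Rx transgene is not expected to act, gave the same comparison outside the eye field lineage. The summed level was 2368 CPM (2347 to 2389) in 1519 control and 2269 CPM (2251 to 2287) in 1972 mutant cells. Of the 40 genes 34 were lower (median -0.08 against -0.04 over 14764 genes) and none was 1.5-fold higher or lower, against 3.39% and 5.15% of all genes. Ttk had 12.7 and 10.1 CPM (-0.32, -0.57 to -0.08), Ckap2l, a spindle protein, 25.01 and 20.3 (-0.30, -0.48 to -0.13) and Nusap1 71.9 and 58.9 (-0.29, -0.39 to -0.19). Ndc80 lay highest, with 11.9 and 13.6 CPM (0.20, -0.03 to 0.44), and Cdc20 had 52.5 and 56.8 (0.11, 0.0014 to 0.23). Here too the point values differed in direction between the sexes, with medians of -0.44 in cells of female and 0.16 in cells of male embryos. The share of mitotic-rich cells differed by -7.48 points (-11.3 to -3.48) in female and 2.98 points (-1.82 to 7.46) in male cells. Sex and embryo could not be told apart here either.

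Of the smaller classes with at least 50 cells in each library, endothelium-like cells had 37 of 40 mitotic genes lower in the mutant (median -0.29) and 6 at least 1.5-fold lower, against 11.7% of all genes, with Sgo2a at 49 and 19 UMIs (-1.31, -2.21 to -0.57). Surface ectoderm-like cells had 34 of 39 lower (median -0.32) and 7 at least 1.5-fold lower, against 15.6% of all genes. The 1 gene at least 1.5-fold higher there, against 11.8% of all genes, was Sgo2a with 8 and 20 UMIs (1.35, 0.20 to 2.84). Macrophage-like cells had 21 of 40 lower (median -0.01) and 1 at least 1.5-fold lower, Kpna2 with 128 and 82 UMIs (-0.64, -1.06 to -0.23), against 10.2% of all genes. In these cells 2 were at least 1.5-fold higher, against 9.98% of all genes, namely Spc25 with 66 and 104 UMIs (0.65, 0.20 to 1.12) and Kif20b with 47 and 71 (0.59, 0.04 to 1.16).

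Red blood cell-like cells had 39 of 40 mitotic genes higher in the mutant (median 0.90) and 28 at least 1.5-fold higher, but 37.1% of all genes were too, with a median of 0.39 over 8059 genes. Nuf2 had 1 control and 30 mutant UMIs there (2.67, 1.03 to 8.97). Amacrine or horizontal-like cells had 17 of 23 measured genes higher (median 0.85) and 15 at least 1.5-fold higher, against 10.3% of all genes, on sums of 271 and 525 UMIs over all 40 genes. The 1 gene at least 1.5-fold lower, against 10.8% of all genes, was Ccnb2 with 13 and 9 UMIs (-0.75, -2.21 to 0.54). Mki67, the proliferation marker Ki-67, had 3 and 18 UMIs (1.98, 0.54 to 4.72). In this class 1 of 60 control and 2 of 72 mutant cells were mitotic-rich. Single mutant cells weighed heavily, 1 holding 75.6% of the UMIs of Ube2c and 1 holding 68.6% of those of Birc5. Without the top cell of each library the ratio of Ube2c went from 0.93 to -0.77 and that of Birc5 from 0.81 to -0.27. Those of Top2a and Cdk1 went from 1.82 to 1.64 and from 1.49 to 1.19.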

How the data were processed

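Per the labels and the methods of the study, the authors aligned reads to mm10 with Cell Ranger 7.1.0 and deposited raw UMI counts per gene and barcode for each library, with no normalization, and used Seurat 4.1.1 downstream. Whether intronic reads were counted is not given in the sources used here.

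Cells needed at least 200 genes and at most 15% mitochondrial UMIs, the limits of the study. Scrublet (scanpy 1.11.5, expected rate 0.05) marked the doublets that were removed (51 control and 74 mutant cells, or 0.924% and 1.16%). The study's upper limit of 2000 UMIs was run as an alternative only, since 4278 and 5204 of the kept cells exceed it. Seurat 5.3.0 (R 4.3.3) integrated the libraries and clustered them with 30 principal components at resolution 0.8, on 1895 of 2000 variable features, leaving out 105 cell cycle genes. Clusters were named from fixed marker lists, with thresholds set after the clusters had been seen. A name needed at least 3 markers enriched 2-fold. The mitotic genes and lists were chosen with earlier results of these data known.

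The control library held 63483835 UMIs and the mutant library 75228861. Counts were summed per class and library and given as CPM, in Python 3.11.15 with numpy 2.4.6, scipy 1.17.1 and pandas 2.3.3. Sums have exact Poisson intervals, shares Clopper-Pearson intervals, differences of shares Newcombe's intervals, and log2 ratios (1 UMI added) exact conditional binomial intervals, all at 95%. A gene counted as measured in a class with at least 10 UMIs over both libraries. The genes named in each class were, among those with at least 30 UMIs, the 5 highest and 5 lowest ratios and the best counted gene of each role group. Any other was chosen after its values were seen. Some genes that met these rules are not reported here. The comparison of sums was tested on simulated counts. These were independent Poisson counts, the model behind the intervals, so they could not show how far a few cells sway the sums. The alternatives were no doublet removal, other UMI and mitochondrial limits, no integration, clustering with all variable features or at resolution 0.4 or 1.6, classes by a rule per cell, each sex alone, leaving out the cell with the most mitotic UMIs, another denominator, means of log values, other minimum counts and other thinning. Leaving out shared barcodes, equal weight per cell, the ganglion clusters apart and the alternatives for the ganglion and neurogenic results were added after seeing the data.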

Additional observations from a re-analysis of the deposited data

Results flagged for a closer look

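The summed mitotic genes moved in opposite directions between the libraries in different cell classes, and these differences between classes were not tested, since there was 1 library per genotype. The log2 ratio of mutant over control was 0.84 in RPE-like, 0.68 in amacrine or horizontal-like and 0.63 in red blood cell-like cells. It was -0.036 in retinal progenitor-like, -0.11 in neurogenic precursor-like, -0.97 in ganglion cell-like, -0.062 in periocular mesenchyme-like, -0.32 in endothelium-like, -0.055 in macrophage-like and -0.27 in surface ectoderm-like cells. Of the mutant mitotic UMIs of amacrine or horizontal-like cells, 9 cells held 77.1%.

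The unnamed clusters, which entered no comparison, also held mitotic transcripts, with 4182 CPM in the control and 4379 CPM in the mutant (log2 ratio 0.066, 0.00048 to 0.13).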

How the results depend on the processing

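No paired analysis was possible because each genotype had 1 library. In RPE-like cells the median log2 ratio of the mitotic genes, 0.80, was above 0 under all 17 alternatives (0.068 to 1.40). The 31 of 40 genes at least 1.5-fold higher became 8 of 19 measured genes with an upper limit of 2000 UMIs. They became 9 of 40 with a mitochondrial limit of 5% and 11 of 26 with equal weight per cell. The share over all genes was not computed under these alternatives. With means of log2(UMIs per 10000 + 1) per cell the median was 0.068 and the count 0. These are differences of means, not ratios, and the added 1 shrinks differences of sparse genes, so the 1.5-fold limit was hardly reachable and they say nothing of stability. At the 5% limit Ube2c reversed to -0.16. The difference in mitotic-rich cells was 28.5 points (-8.36 to 55.7) at the limit of 2000 UMIs. In every class this setting also called mitotic-rich cells after thinning to 1500 UMIs, so both choices changed together.

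In retinal progenitor-like cells the median, -0.05, became 0.32 at the limit of 2000 UMIs and 0.074 in male cells. The difference in mitotic-rich cells, -4.25 points, became 4.63 and 4.19 in these settings and -10.1 in female cells. The intervals of 4.63 and 4.19 include 0. In periocular mesenchyme-like cells the median, -0.08, became 0.39 at the limit of 2000 UMIs, 0.15 at 5% mitochondrial UMIs, -0.44 in female and 0.16 in male cells, and the difference in mitotic-rich cells 17.9, 3.55, -7.48 and 2.98 points. Of these differences only -7.48 had an interval that leaves out 0. The ganglion cell-like median, -0.92, was below 0 in all 13 alternatives and came to -0.034 at the limit of 2000 UMIs. The median of neurogenic over progenitor-like cells became 1.18 (control) and -0.16 (mutant) at the limit of 2000 UMIs, 0.97 and 0.83 with all variable features and 0.43 and 0.27 with a rule per cell, and 0.32 in the control at 5% mitochondrial UMIs. The causes were not tested. Of 866 values for 52 pairs of a named gene and a class, 669 stayed within the counting interval of the reported value. In all, 64 had the opposite sign, of which 1 (Ube2c, above) was for a gene at least 1.5-fold changed with an interval that leaves out 0. Depth limits the RPE-like values, where a gene had from 10 to 313 UMIs per library.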

Other observations

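S-phase genes, which act a phase before the mitotic genes, did not have the same ratio in every class. In RPE-like cells both were higher in the mutant, with medians of 0.87 for 34 S-phase genes and 0.80 for the mitotic genes. In ganglion cell-like cells 24 of 33 S-phase genes were lower with a median of -0.19, against -0.92 for the mitotic genes. At least 1.5-fold lower were 4 of the 33 S-phase genes and 29 of the 40 mitotic genes, against 7.27% of all genes. In macrophage-like cells 34 of 36 S-phase genes were lower (median -0.42), while the mitotic genes had a median of -0.01. In periocular mesenchyme-like cells 34 of 36 S-phase genes were lower (median -0.20, against -0.08). These differences between lists were not tested.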
